A study of Homo sapiens with 6 samples.

Results

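The genes described here are 10 genes of the NRF2 antioxidant pathway: NFE2L2, KEAP1, NQO1, HMOX1, GCLC, GCLM, TXNRD1, SRXN1, AKR1B10 and ME1. They were chosen by name, and every RPB1 or pSer2 region that the authors assigned to one of these symbols was taken. This gave 439 of the 271336 regions in the 4 lists, and 9 of the 10 genes had at least 1 region, out of 16428 genes named in any list. The cells were HepG2, a cell line from a human liver tumor. The SHP-1 KO cells (KO below) carried a CRISPR knockout of PTPN6, which encodes the tyrosine phosphatase SHP-1. The paper made untransfected and nontargeting-guide controls, and does not say which were the WT cells of the ChIP-seq. It describes clonal lines with and without this deletion. A difference between clones and an effect of the knockout therefore cannot be told apart. In WT and KO cells, ChIP-seq mapped the regions occupied by RPB1, the largest subunit of RNA polymerase II. It also mapped those of RPB1 phosphorylated on serine 2 of its C-terminal domain (pSer2). There was 1 library per antibody and cell line, compared by the authors with the input chromatin of the same cells. The values below are thus from single libraries without replicates, and no test was run. In chromatin from many cells, fewer cells with polymerase on a gene and less polymerase per cell cannot be told apart.

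NRF2, the protein encoded by NFE2L2, is a transcription factor that is held at low levels by KEAP1, an adaptor that hands it to a ubiquitin ligase for degradation. Oxidants and electrophiles modify KEAP1, NRF2 accumulates, pairs with a small MAF protein and binds antioxidant response elements near its target genes. In liver cells these targets serve glutathione synthesis (GCLC, GCLM), the thioredoxin system (TXNRD1, SRXN1), the reduction of quinones and aldehydes (NQO1, AKR1B10), heme breakdown (HMOX1) and the supply of NADPH (ME1). Total RPB1 is usually most concentrated just after the start of a gene, where polymerase pauses, whereas phosphorylation of serine 2 marks elongating polymerase and accumulates towards and past the end of the gene.

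The regulatory sequences are shown first, because the position of the polymerase regions at NQO1, GCLM, TXNRD1 and ME1 is best read against them. The core of the antioxidant response element was searched as TGACNNNGC on both strands, and a match on the opposite strand reads as its reverse complement. In the RefSeq promoter windows (GRCh38.p14, 250 bases before to 50 after a start), 13.3% of 35116 windows held the core, as did 5 of the 11 windows of the 8 genes found in that table. HMOX1 and AKR1B10 were not among those 8. In 600-base windows of hg38, from 500 bases before to 100 after the start of the principal transcript (MANE Select where there is one), the share was 23.3% of 20020 genes and 4 of the 10 members. The cores at 5 starts, with 11 bases on each side, are shown, 1 for each start. Read 5′ to 3′ along the gene with the core in capitals, they were the following.

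NQO1, chr16:69726996-69727026, minus strand: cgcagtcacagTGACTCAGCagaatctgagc

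GCLM, chr1:93909445-93909475, minus strand: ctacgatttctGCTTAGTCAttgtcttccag

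TXNRD1, downstream start, chr12:104286919-104286949, plus strand: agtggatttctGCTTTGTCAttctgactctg

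KEAP1, downstream start, chr19:10502783-10502813, minus strand: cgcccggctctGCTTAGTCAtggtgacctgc

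ME1, chr6:83431169-83431199, minus strand: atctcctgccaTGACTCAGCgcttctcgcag

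The NQO1 core began 455 bases before the gene start and lay under the strongest RPB1 region of the gene in both cell lines. The GCLM core began 34 bases and the TXNRD1 core 102 bases before a start, and both also lay under the strongest RPB1 region of their gene in WT and KO cells. The same was true of the KEAP1 core, 31 bases before the downstream start of that gene, where a second match began 54 bases before the same start. The ME1 core shown, 137 bases before the start and spelled like that of NQO1, lay under no region of any list. Neither did the 2 further ME1 matches, which began 12 and 69 bases into the transcript, nor the 2 matches at the principal, upstream start of TXNRD1. A match is a run of letters and says nothing about whether NRF2 was bound. The core was not found in the windows of NFE2L2, GCLC, HMOX1, SRXN1 and AKR1B10, which says only that these letters are not there. The wider sequence before the starts of NQO1, GCLM, TXNRD1 and ME1 is given to show where each core lies.

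NQO1, 500 to 251 bases before the start, hg38 chr16:69726811-69727060, minus strand: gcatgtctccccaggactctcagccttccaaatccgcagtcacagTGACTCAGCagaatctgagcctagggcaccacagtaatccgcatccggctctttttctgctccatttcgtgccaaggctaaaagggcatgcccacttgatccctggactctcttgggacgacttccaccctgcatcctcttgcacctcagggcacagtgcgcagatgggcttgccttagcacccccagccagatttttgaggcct

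GCLM, the 250 bases before the start at 93909430 on chromosome 1, minus strand: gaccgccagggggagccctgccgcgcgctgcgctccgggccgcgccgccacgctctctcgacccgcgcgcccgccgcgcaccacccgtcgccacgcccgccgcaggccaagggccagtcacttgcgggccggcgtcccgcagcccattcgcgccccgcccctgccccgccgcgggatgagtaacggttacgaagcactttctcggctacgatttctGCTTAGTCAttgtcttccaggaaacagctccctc

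TXNRD1, the 250 bases before the downstream start at 104287032 on chromosome 12, plus strand: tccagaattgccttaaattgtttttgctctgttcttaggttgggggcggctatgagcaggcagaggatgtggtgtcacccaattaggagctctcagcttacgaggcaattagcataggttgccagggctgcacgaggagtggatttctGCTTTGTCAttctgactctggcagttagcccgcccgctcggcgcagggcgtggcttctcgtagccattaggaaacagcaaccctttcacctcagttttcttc

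ME1, the 250 bases before the start at 83431051 on chromosome 6, minus strand: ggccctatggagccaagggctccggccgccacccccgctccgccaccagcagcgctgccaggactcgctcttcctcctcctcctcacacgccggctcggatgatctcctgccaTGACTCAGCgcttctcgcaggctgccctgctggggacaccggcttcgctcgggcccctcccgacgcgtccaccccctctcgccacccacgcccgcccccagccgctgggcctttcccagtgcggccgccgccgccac

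The 4 lists held 46045 WT and 41605 KO regions for RPB1, and 102674 WT and 81012 KO regions for pSer2. Of these, in the same order, 74, 76, 144 and 145 were assigned to the NRF2 pathway genes. The fold enrichment of a region is the authors' value, the ratio of ChIP signal to input at its summit, and rank 1 is the strongest region of a list. Read depth is unknown. A promoter region is one that the authors placed within 1 kb of the start of any annotated transcript. Of 9 hepatocyte markers, 8 had a promoter region in each list, among them ALB, TTR and HNF4A, whereas of the markers of other cell types CD68 and PECAM1 had one in each list and PDGFRB had one in both RPB1 lists. At PTPN6 itself, the strongest RPB1 promoter region had a fold enrichment of 23.95 in WT and 17.2 in KO cells, and the pSer2 region 4.028 and 5.236. This does not check the knockout, since small changes in coding sequence need not remove polymerase from a promoter.

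RPB1 was found at the promoters of all members except ME1, in both cell lines. At 8 of these 9 genes the strongest promoter region had a lower fold enrichment in SHP-1 KO than in WT cells, but the same was true of most genes of the genome, and the members did not stand below them. A promoter RPB1 region was listed for 9 members in WT and for 9 in KO cells, where 74.4% and 72% of all genes named in any list had one.

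At the regulators, NFE2L2 (chr2:177230308-177264727, minus strand) had an RPB1 region of fold enrichment 38.29 at its start in WT (rank 3568) and 32.06 in KO cells (rank 2490). KEAP1 (chr19:10486125-10503356, minus strand) had 55.07 in WT (rank 1228) and 43.19 in KO cells (rank 1037). Both promoters were thus lower in fold enrichment in KO cells while standing higher in the order of their list, which was shorter than in WT. The summit at KEAP1 lay 677 bases after the gene start in WT and 378 bases after it in KO cells, in the stretch that holds the downstream start.

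The enzyme that makes γ-glutamylcysteine, the rate-limiting step of glutathione synthesis, has a catalytic subunit encoded by GCLC and a modifier subunit encoded by GCLM. GCLC (chr6:53497341-53545101, minus strand) had the strongest RPB1 promoter of the 10 genes in WT, with a fold enrichment of 56.47 (rank 1130), and 34.39 in KO cells (rank 2063). Its KO/WT ratio was 0.609, the lowest of the members. A second RPB1 region, whose summit lay 2873 bases before the GCLC start in WT, had a fold enrichment of 34.2 in WT and 24.21 in KO cells. GCLM (chr1:93885199-93909430, minus strand) had the weakest promoter region of the members in both lists, with 17.23 in WT and 13.75 in KO cells. This was also the only RPB1 region assigned to GCLM in either list.

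NQO1 encodes a reductase that takes quinones directly to hydroquinones. Its promoter region (chr16:69709401-69726560 for the gene, minus strand) had a fold enrichment of 47.27 in WT and 35.31 in KO cells. The region spanned 5051 bases in WT and 2266 bases in KO cells, with summits 41 and 31 bases after the gene start. In KO cells, separate regions flanked it on both sides, largely within the span of the WT region. HMOX1 (chr22:35381096-35394207, plus strand), which encodes the inducible heme oxygenase, had 32.12 in WT and 24.86 in KO cells, with summits 63 and 59 bases after the start. In WT, 3 further weak RPB1 regions with fold enrichments of 4.376, 5.352 and 4.005 were assigned to HMOX1, and in KO cells no other region was. AKR1B10 (chr7:134527567-134541412, plus strand), an aldo-keto reductase that reduces retinal and lipid aldehydes, was the member whose promoter value did not fall, with 20.82 in WT (rank 8232) and 21.08 in KO cells (rank 5588).

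TXNRD1 encodes the cytosolic reductase that regenerates thioredoxin, and SRXN1 encodes sulfiredoxin, which repairs overoxidized peroxiredoxins. The principal annotated transcript of TXNRD1 (chr12:104215779-104350307, plus strand) had no region of any list within 1 kb of its start. Instead, the RPB1 region with a fold enrichment of 24.55 in WT and 18.78 in KO cells lay at the downstream start, 71.3 kb into the gene, under the core printed above. SRXN1 (chr20:646615-653200, minus strand), the shortest of the 10 genes at 6.59 kb, had 42.57 in WT and 30.43 in KO cells. A readthrough gene model on the same strand covers SRXN1, and signal on the shared stretch cannot be assigned to one of them. ME1 (chr6:83210402-83431051, minus strand), which encodes the cytosolic malic enzyme, is 221 kb long and had no region in any of the 4 lists.

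**Figure D1:**
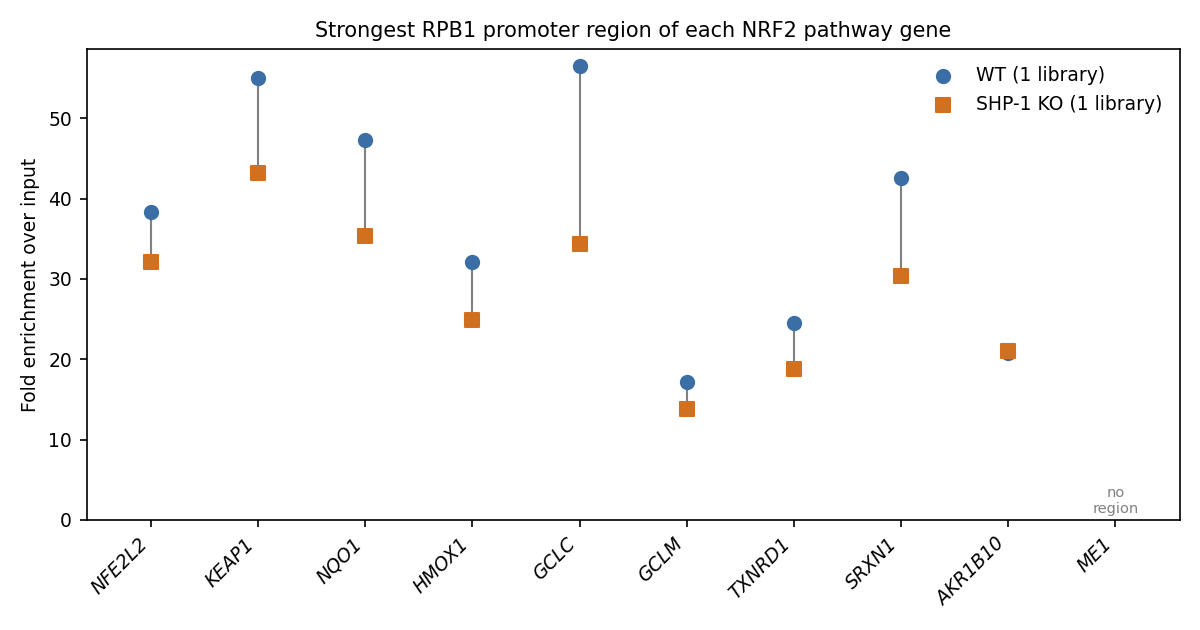
Fold enrichment over input of the strongest RPB1 promoter region of each gene in the WT library (blue circle) and the SHP-1 KO library (orange square), 1 library each. The SHP-1 KO value lies below the WT value at 8 of 9 genes, the values nearly coincide at AKR1B10 (20.82 and 21.08), and ME1 had no region.

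Against all genes, the RPB1 promoter ratios of the members were mostly in the middle of the range. The median KO/WT ratio was 0.774 over the 9 members (range 0.609 to 1.01) and 0.727 over the 11250 genes with a promoter region in both lists (quartiles 0.596 and 0.894). Of the 9 members, 7 were above the median of all genes. A ratio of 1.5 or more in either direction was counted as a call. For RPB1 promoters, 1 member (GCLC) was called lower and 0 were called higher in KO cells, beside 38.2% of all genes called lower and 2.12% called higher. GCLC stood at percentile 27.3 of all genes, and AKR1B10 at percentile 85.8. The remaining 7 members lay between percentile 47.7 (SRXN1) and percentile 67.9 (NFE2L2). Divided by the median of all genes, GCLC had a ratio of 0.838 and AKR1B10 of 1.39, both within the limits of a call.

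**Figure D2:**
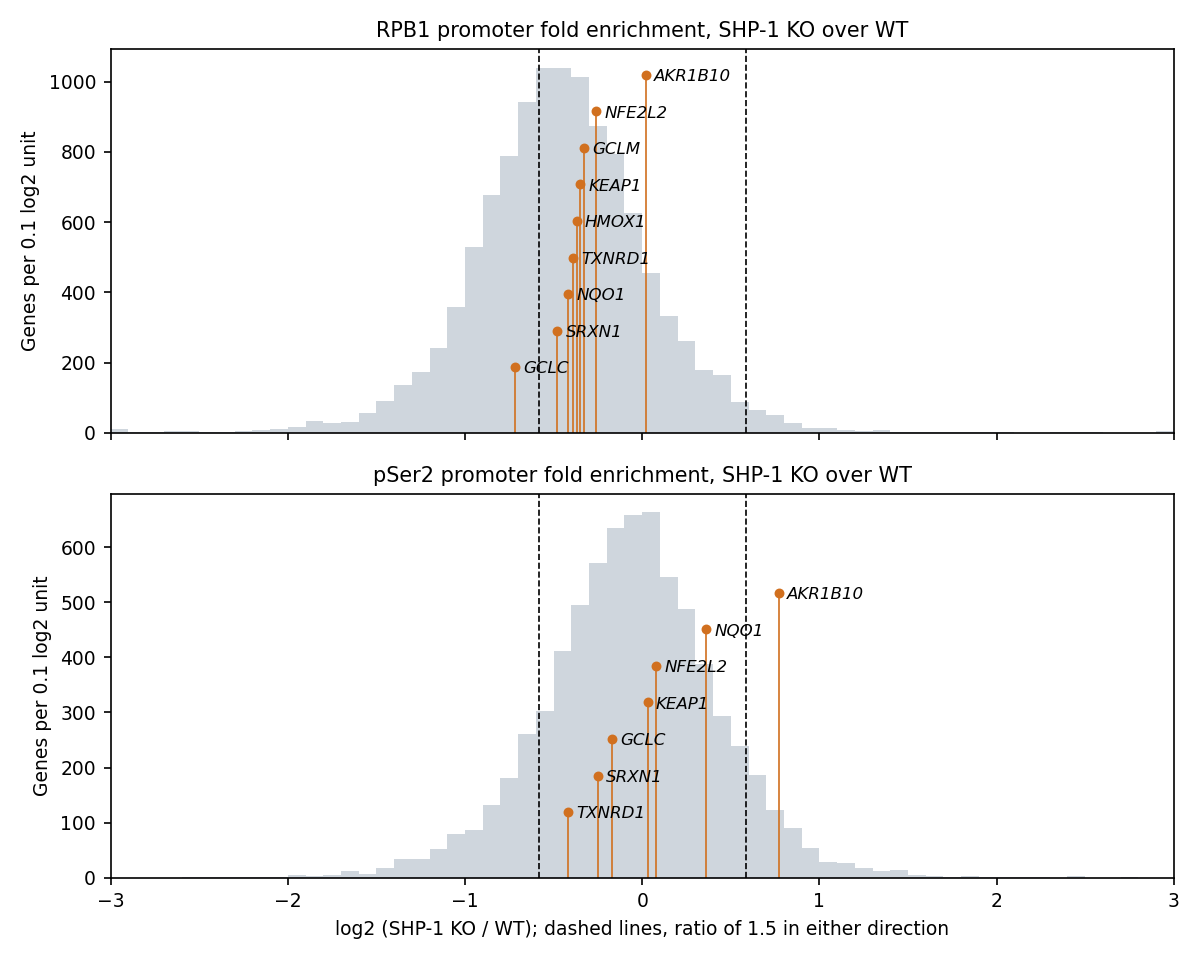
Grey bars count genes by the log2 ratio of SHP-1 KO to WT promoter fold enrichment for RPB1 (top, 11250 genes) and pSer2 (bottom, 7191 genes), with values beyond 3 in either direction placed in the outermost bars. Orange pins mark the members, their heights being arbitrary. For RPB1, 8 of the 9 members lie below 0 within the bulk of all genes. For pSer2, AKR1B10 lies past the dashed line at a ratio of 1.5. The pSer2 values of NFE2L2 and GCLC are from regions at the gene end, and those of KEAP1, TXNRD1 and AKR1B10 compare different places.

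The share of the gene under pSer2 regions differed widely between the members. NFE2L2, NQO1 and AKR1B10 were covered by pSer2 regions over most of their length in both cell lines, GCLC, TXNRD1, SRXN1 and KEAP1 over part of it, and HMOX1 and GCLM hardly at all, although both carried RPB1 at the promoter. For the share of a gene from start to end that lay under regions, every region of a list counted, whatever gene it was assigned to. At NFE2L2 this share for pSer2 was 93.4% in WT and 92.3% in KO cells. At NQO1 it was 89% and 86.5%, and at AKR1B10 79.7% and 80.6%. These 3 genes differed by at most 2.53 percentage points between the cell lines. The pSer2 regions assigned to NFE2L2 itself left a long stretch of its first intron empty, between 177243966 and 177259934 in WT. Regions counted in that stretch were thus not assigned to NFE2L2, and its own regions alone cover much less of the gene.

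At TXNRD1, pSer2 regions covered 30.6% of the gene in WT and 30.4% in KO cells when counted from the principal start. From the downstream start to the gene end, a stretch of 63.3 kb, they covered 64.8% and 64.4%. Upstream of that start, up to 1 kb before it, no base lay under an RPB1 or pSer2 region in either cell line. The polymerase regions at this gene therefore all lay within 1 kb of the downstream start or beyond it. At KEAP1, 25.6% of the gene was covered in WT and 27.6% in KO cells.

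HMOX1 was assigned 1 pSer2 region in WT (fold enrichment 3.232) and 3 in KO cells (strongest 4.286). With regions assigned to other genes counted, 2.35% and 5.2% of the gene lay under pSer2 regions. GCLM was assigned no pSer2 region in WT and a single one of 200 bases in KO cells (3.42, rank 54982). With regions assigned to other genes counted, 2.76% of the gene lay under pSer2 regions in KO cells. No region of either pSer2 list touched the promoter window of GCLM that is printed above.

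The largest shifts in covered share were gains. For pSer2, SRXN1 went from 44.4% in WT to 60.7% in KO cells, a difference of 16.32 percentage points, and GCLC from 46.4% to 57.9%, a difference of 11.46 points. For a change of at least 10 percentage points, 2 members were thus called higher and 0 lower, beside 3.22% of all genes with a pSer2 region called higher and 14.5% called lower. The SRXN1 gain came with fewer and longer regions, 9 in WT and 6 in KO cells, and with a lower fold enrichment at the gene end (5.147 and 4.707). At GCLC the number of regions went from 37 to 44, while its strongest region went from 12.88 to 11.48. In both genes, then, more bases were listed as occupied while the strongest value was lower.

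For RPB1, the covered share of SRXN1 went from 25.3% in WT to 37.9% in KO cells (12.60 points) and that of AKR1B10 from 42.1% to 52.4% (10.28 points). These 2 members were called higher and 0 lower, beside 2.79% and 8.78% of all genes. NQO1, at 44.1% and 49%, and KEAP1, at 20.6% and 23.8%, differed by less. At HMOX1 the share was 10.1% in WT and 2.25% in KO cells, with a longer promoter region and weak regions inside the gene in WT. NFE2L2 (12.1% and 12.3%), GCLC (4% in both), and GCLM (3.12% and 2.42%) had RPB1 mainly at their start in both lists, and TXNRD1 (1.94% and 1.86%) at its downstream start. Within 2 kb of the gene end, 5 members had an RPB1 region in both lists, when regions not assigned to them were included, as for all genes. The WT value of NQO1 (10.83) came from such a region. Of the 5, NFE2L2 (10.34 in WT and 5.134 in KO cells) and SRXN1 (9.855 and 5.242) were called lower. None was called higher, and the shares of 4776 genes called lower and higher were 24.7% and 5.61%. The WT region at the NFE2L2 end also holds the end of HNRNPA3, a gene of the other strand. The KO value comes from a shorter region within its span. Another KO region within that span, just outside the window, had 8.86, so that the NFE2L2 call rests on the window. Covered share depends on how many regions pass the threshold of a list, and the KO lists were the shorter ones for both antibodies. The part of list length in these values was not tested.

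**Figure D3:**
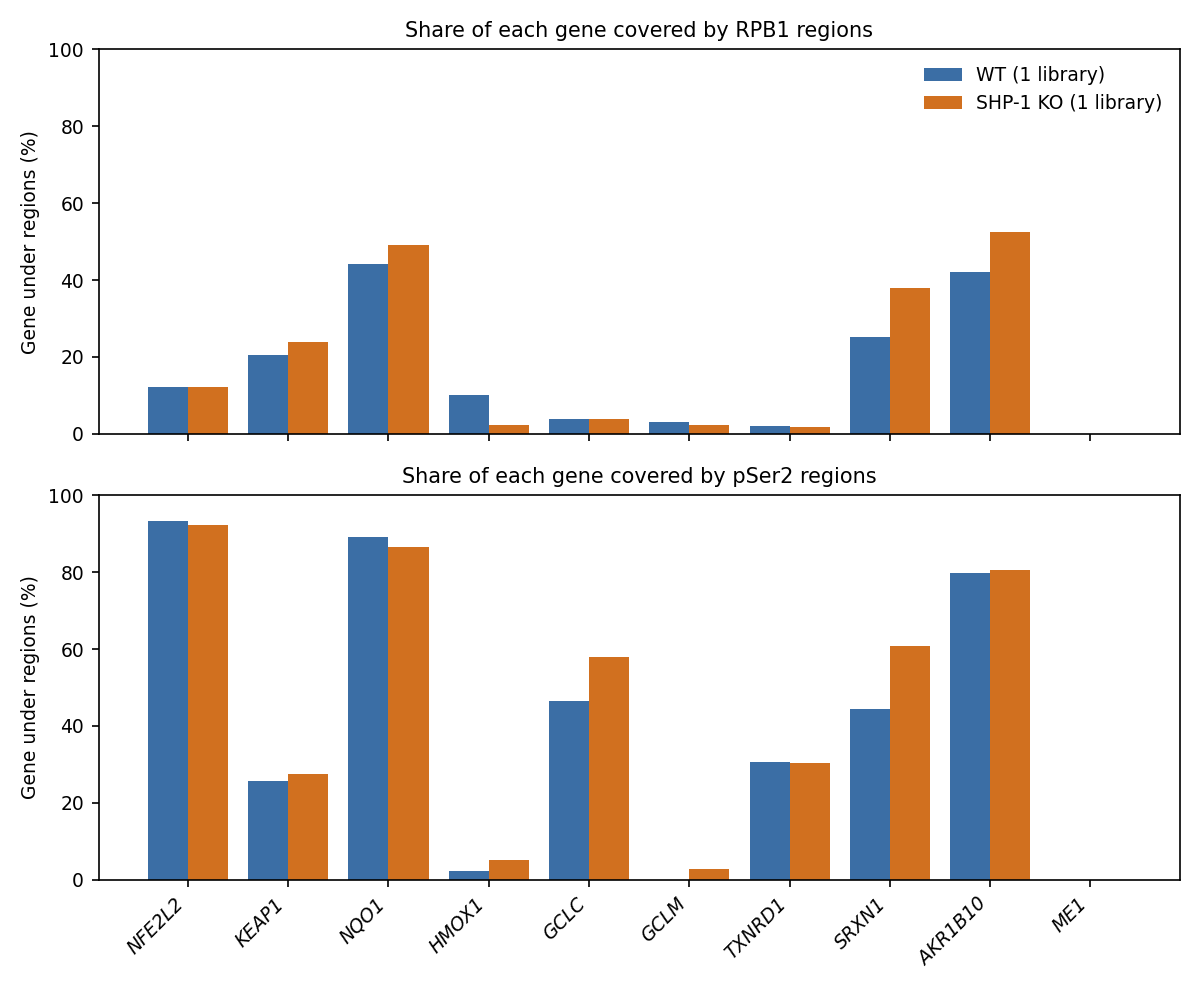
Percent of the bases from start to end of each gene that lie under RPB1 regions (top) and pSer2 regions (bottom) in the WT library (blue bars) and the SHP-1 KO library (orange bars), 1 library each. All regions are counted, whatever gene they were assigned to. NFE2L2, NQO1 and AKR1B10 are above 79% for pSer2 in both, HMOX1 and GCLM are near 0 for pSer2, and ME1 is at 0 for both antibodies.

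**Figure D4:**
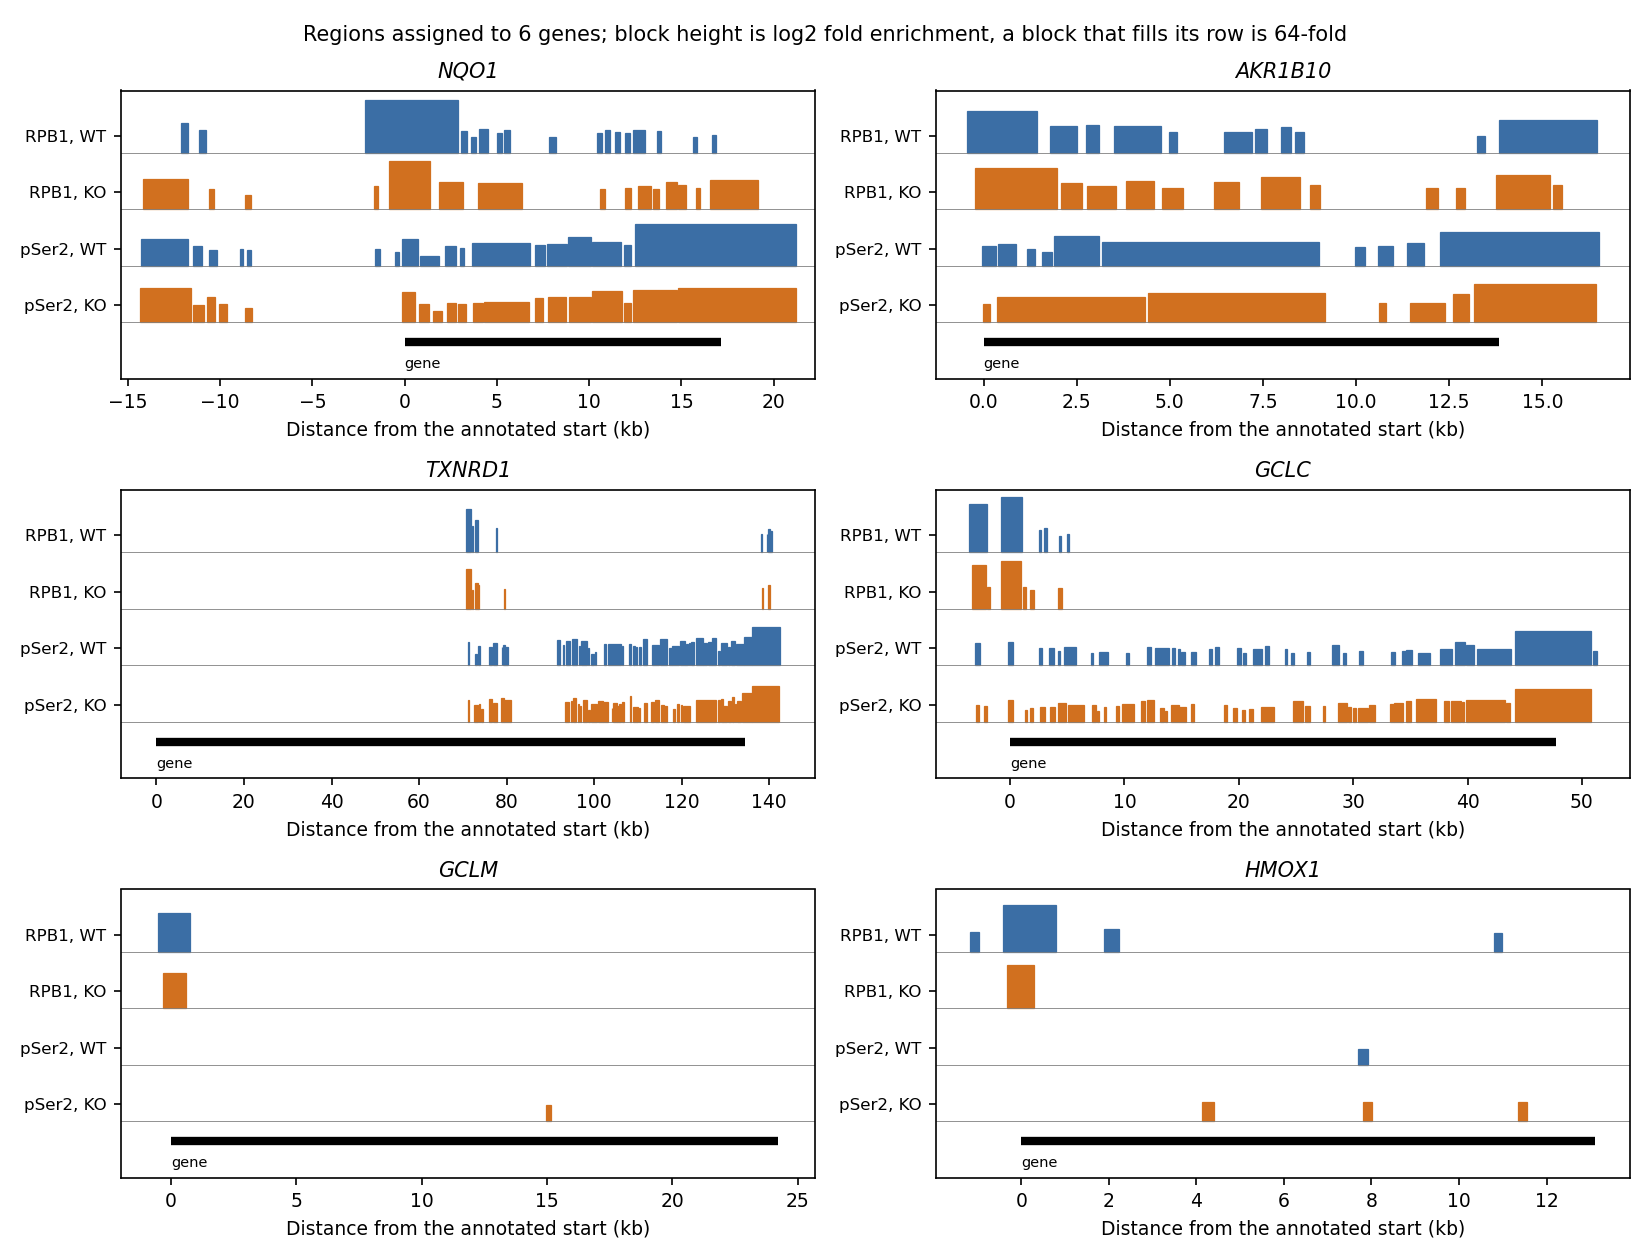
Regions assigned to 6 genes in the 4 lists, along the distance in kb from the annotated start in the direction of transcription, with block height proportional to log2 fold enrichment and the gene as a black bar. RPB1 is highest at the start, pSer2 is highest at or past the end of NQO1, AKR1B10, TXNRD1 and GCLC, the TXNRD1 regions begin near 71.3 kb into the gene, and GCLM and HMOX1 have almost no pSer2 regions.

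Where pSer2 was strong on a member, it was strongest at or beyond the gene end. Within 2 kb of the annotated end, 7 members had a pSer2 region assigned to them in both lists, and all 14 summits lay past the end. Among these, the NFE2L2 summits lay 345 bases in WT and 283 bases in KO cells from the end of HNRNPA3, and may belong to that gene. This window was chosen after the data had been seen. NQO1 had the largest difference downwards, with a fold enrichment of 21.41 in WT (rank 160 of the list) and 12.83 in KO cells (rank 796), a ratio of 0.599. Both summits lay past the end of NQO1, by 637 bases in WT and 612 bases in KO cells. The gene NFAT5, which runs towards NQO1 on the other strand, ends 4.11 kb from the WT summit, and ChIP does not tell the strands apart. At the NQO1 start the order was the opposite, with pSer2 at 7.111 in WT (rank 5590) and 9.123 in KO cells (rank 2310).

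AKR1B10 had the reverse pattern at its end, with 11.72 in WT (rank 1307) and 17.01 in KO cells (rank 324), a ratio of 1.45 that was not called. KEAP1 had 4.513 in WT and 8.191 in KO cells in this window, a ratio of 1.82. A little further past the KEAP1 end, outside the window, another pSer2 region had 7.113 in WT and 7.253 in KO cells, so that the ratio of 1.82 rests on the window. GCLC had 12.88 and 11.48, TXNRD1 17.02 and 14.06, and SRXN1 5.147 and 4.707, so that these 3 were somewhat lower in KO cells. At the NFE2L2 end, the values of 17.88 in WT and 18.96 in KO cells belong to a region of 13.6 kb that also holds the end of HNRNPA3. Its summit lay 6004 bases past the end of NFE2L2 in WT and 345 bases from the end of HNRNPA3, so polymerase on the 2 genes cannot be told apart here. The next strongest pSer2 regions of NFE2L2, in its first intron, had 7.099 in WT and 6.353 in KO cells.

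In all, the end windows of 9 members had a pSer2 region in both lists when regions assigned to neighbours were included, as was done for all genes. Of these, KEAP1 was called higher and NQO1 lower, beside 6.57% and 14.3% of 8359 genes. The regions counted there for GCLM in both lists and for HMOX1 in WT were assigned by the authors to the neighbouring genes DNTTIP2 and MCM5.

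**Figure D5:**
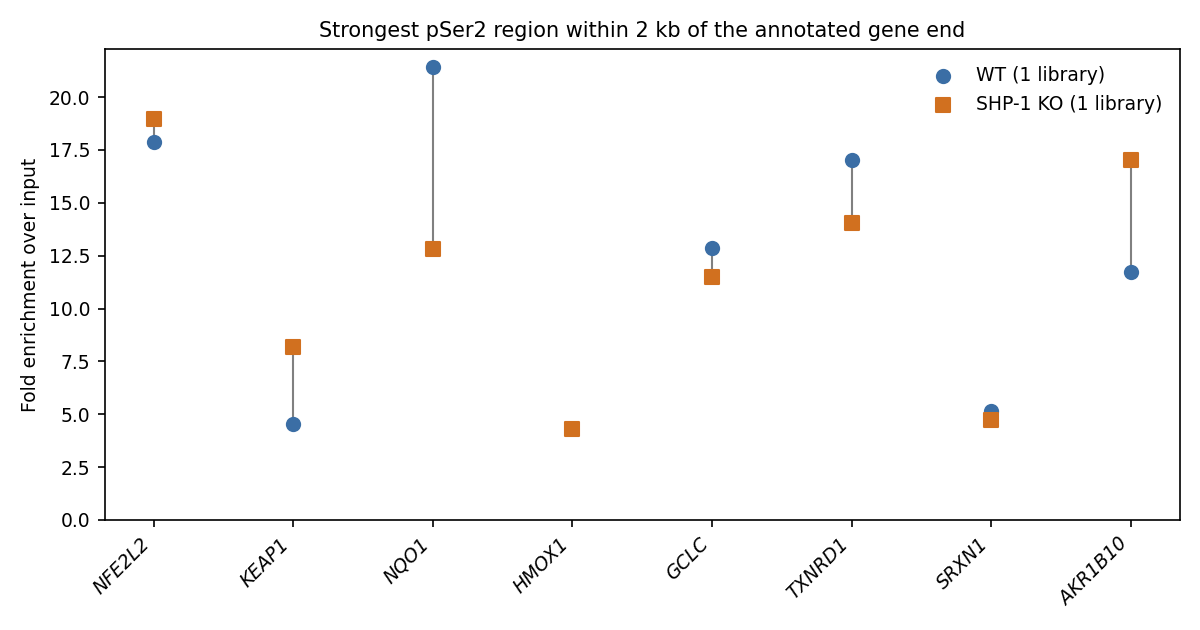
Fold enrichment over input of the strongest pSer2 region that was assigned to the gene and lies within 2 kb of its annotated end, in the WT library (blue circle) and the SHP-1 KO library (orange square), 1 library each. NQO1 is lower in SHP-1 KO (21.41 and 12.83), AKR1B10 and KEAP1 are higher, and HMOX1 had such a region (4.282) for SHP-1 KO alone.

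For pSer2 regions that the authors classed as promoter, 7 members had one in WT and 7 in KO cells, where 55.1% and 48.8% of all genes had one. The median KO/WT ratio was 1.02 over the 7 members (range 0.746 to 1.71) and 0.958 over 7191 genes. At NFE2L2 and GCLC these were the gene-end regions given above, with summits 40423 and 49282 bases after the start in WT. At KEAP1 (summits 11153 bases after the start in WT and 2963 in KO cells) and TXNRD1 (95612 and 71289), different places were compared. The median thus does not describe pSer2 at the gene starts. AKR1B10 was the single member called higher and 0 were called lower, beside 8.39% and 13.5% of all genes. The AKR1B10 values of 4.979 in WT and 8.518 in KO cells came from different places, with summits 714 and 7421 bases after the gene start, since short internal transcripts also have promoters in this annotation. Among the regions that reach within 1 kb of the principal start, the strongest values were 4.979 and 6.651, a ratio of 1.34 that was not called, and the KO summit lay 3805 bases after the start. The regions with summits nearest the start, at 118 and 122 bases after it, had 4.285 in WT and 3.968 in KO cells, so that the direction at AKR1B10 depended on the region taken. Near-identical paralogues of AKR1B10, among them AKR1B15 next to it, make the placement of short reads there uncertain. In the same start window, pSer2 was 4.018 and 5.149 at NFE2L2, again from different regions, and the KO region that overlapped the WT one had 2.036. The values were 3.412 and 3.086 at KEAP1, 5.651 and 5.029 at GCLC, and 3.515 and 2.948 at SRXN1.

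Upstream of NQO1, further regions were assigned to this gene that lie outside it. The strongest, a pSer2 region of 2.59 kb in WT (chr16:69738287-69740872) and 2.77 kb in KO cells (chr16:69738133-69740897), had fold enrichments of 7.404 (rank 4828) and 12.76 (rank 814). It lay 0.999 kb in WT and 0.974 kb in KO cells beyond the end of NOB1, a gene on the same strand upstream of NQO1. An RPB1 region at the same place had 8.731 in WT and 9.575 in KO cells. Signal from NOB1 and from a region of NQO1 cannot be told apart there, and it is not counted in the covered share of NQO1.

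Most of the members' regions recurred between the cell lines. For RPB1 the share of the whole list lay within the counting interval of the members' share in both directions. For pSer2 the members' share was above that of the whole list in both. Of the 74 WT RPB1 regions, 50 (67.6%, 95% Wilson interval 56.3 to 77.1) were overlapped by a KO region, beside 61.9% of the whole list. Of the 144 WT pSer2 regions, 125 (86.8%, 80.3 to 91.4) were overlapped, beside 52.2% of the whole list. In the other direction, 65.8% (54.6 to 75.5) of the members' SHP-1 KO RPB1 regions were overlapped, beside 74.9% of the whole list. For their SHP-1 KO pSer2 regions the share was 86.9% (80.4 to 91.4), beside 69.9%. The intervals cover counting error only, and regions on 1 gene are not independent. The members' WT RPB1 regions without a counterpart had fold enrichments between 3.17 and 6.14 (median 4.13), beside a median of 5.67 for the overlapped ones. In KO cells the RPB1 regions without a counterpart had 2.95 to 7.57 (median 4.75), beside a median of 5.81. SRXN1 had all 9 of its WT pSer2 regions overlapped, and KEAP1 11 of 17. GCLC (32 of 37 overlapped) and TXNRD1 (42 of 45) together held most of the WT pSer2 regions, so the pSer2 share rests largely on them.

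For RPB1, the members differed from the lists in where their regions lay. Promoter regions made up 27% of the members' RPB1 regions in WT and 27.6% in KO cells, beside 44.6% and 47.4% of the whole lists. Intronic regions made up 39.2% and 42.1%, beside 25.5% and 24.8%. For pSer2, promoter regions made up 29.2% and 27.6%, near the 23.9% and 25.1% of the whole lists. GCLC alone held 13 of these 42 regions in WT and 16 of 40 in KO cells. RPB1 regions of the members were overlapped by a pSer2 region of the same cells in 81.1% of cases in WT and 81.6% in KO cells, where the whole lists had 58.9% and 58.2%. NQO1 (17 and 15 RPB1 regions), KEAP1 (13 and 15) and AKR1B10 (11 and 12) had the most RPB1 regions of the members.

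A wider list of 38 pathway genes was read in the same way, covering MAF partners, the degradation machinery, glutathione and thioredoxin enzymes, the pentose phosphate pathway, iron storage, further reductases and transporters. All 38 had a region in at least 1 list, and 37 had an RPB1 promoter region in both cell lines. For RPB1 promoters, 0 of the 37 were called higher and 14 were called lower in KO cells, with a median ratio of 0.697, beside 38.2% of all genes called lower and their median of 0.727. Among the NRF2 partners, MAFG went from 66.59 in WT to 23.35 in KO cells and MAFF from 51.57 to 23.85, whereas MAFK, with 21.55 and 17.95, was not called. CUL3, the scaffold of the ligase that KEAP1 serves, went from 44.75 to 27.07. PGD (69.5 and 40.12) and TALDO1 (39.55 and 21.43), enzymes of the pentose phosphate pathway, were called lower as well.

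The lowest ratio of the list was at CES1, a liver carboxylesterase, with 23.57 in WT and 5.828 in KO cells. Others called lower were GPX4 (93.62 and 59.27), which reduces lipid peroxides, EPHX1 (96.37 and 60.28), an epoxide hydrolase, MGST1 (29.85 and 17.13), a membrane glutathione transferase, AKR1C3 (13.35 and 8.536), ABCC4 (19.53 and 11.61), SLC48A1 (22.53 and 12.64), a heme transporter, and TRIM16L (8.229 and 5.28). AKR1C3 has close paralogues in the list, and its reads may be split with them.

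For pSer2 promoters, 25 genes of the wider list had a value in both cell lines, with a median ratio of 1.09. Those called higher in KO cells were FTH1, the ferritin heavy chain (13.53 and 32.85), OSGIN1 (6.071 and 10.33), IDH1 (5.519 and 8.873), which makes NADPH in the cytosol, and the exporter ABCC3 (6.89 and 10.79). Those called lower were GPX4 (13.97 and 7.806), the glutathione reductase GSR (3.636 and 1.974) and the autophagy receptor SQSTM1 (14.72 and 8.825). The 4 higher and 3 lower genes stand beside the 8.39% and 13.5% of all genes. Summit positions were not compared for the wider list, so a ratio may set different places of a gene against each other, as at some members. These lists were chosen with earlier results of the series known, and their counts are descriptions.

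The genes most like NFE2L2 and NQO1 were found by the distance between the log2 values of the strongest region in each of the 4 lists, over 9236 genes with a region in all 4. The nearest to NFE2L2 were RBM15B (distance 0.13), SARS (0.17) and RPS24 (0.19), with the reservation that the pSer2 value of NFE2L2 is the one shared with HNRNPA3. The nearest to NQO1 were PNRC2 (0.23), RPS14 (0.29) and RPL37A (0.32). PNRC2 had 42.2 in WT and 34.1 in KO cells for RPB1, and 23.3 and 13.7 for pSer2, values that its choice as the nearest gene made alike.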

How the data were processed

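RPB1 and pSer2 ChIP-seq of WT and SHP-1 KO HepG2 cells, grouped by the labels, was analysed from 4 region lists, and the 2 input libraries were not analysed here. The authors used Trimmomatic for trimming, BWA for alignment (hg38) and MACS2 for narrow peak calling, per library and against the matching input. Tool versions are not given in the sources used here. The deposited fold enrichment is a linear ratio to input at the summit, and the deposited q-value is on a −log10 scale (at least 1.31 in every list). No read counts were used, so depth is unknown. The authors' table of differential regions, which holds their own comparison of SHP-1 KO with WT, was not used.

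Members were matched by the authors' gene symbol. Covered shares and the ratios in start and end windows used all regions, whatever their symbol. All 271336 regions lay within hg38 chromosome lengths. Gene spans came from GENCODE release 44 (MANE Select transcript), where 438 of the 439 member regions' transcripts were found. Promoter values are the strongest region classed as promoter, calls are ratios past 1.5 or 10 percentage points, and overlap is at least 1 bp. The members and lists were chosen with earlier results of these data known. Named are the 10 members, the genes of the wider list past 1.5, those absent from all lists (0 of 38), and the 3 nearest to NFE2L2 and to NQO1. Some genes that these rules would name are not reported here. Neighbouring genes, MAFK, marker genes with a region and the end window were chosen after values were seen. Alternatives were a −log10 q-value of 5, other thresholds, median scaling, overlapping regions, 50% reciprocal overlap, distinct intervals, gene spans from 3 kb upstream, and, added after seeing the data, windows of 1 kb around the principal start. The overlap, coverage and call functions were tested on simulated data. Scripts ran in Python 3.11.15 (NumPy 2.4.6, SciPy 1.17.1, pandas 2.3.3).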

Additional observations from a re-analysis of the deposited data

How the results depend on the processing

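No paired analysis was possible because each antibody and cell line had 1 library and the labels carry no replicate numbers. The median KO/WT ratio of the members' RPB1 promoters (0.774) became 1.06 after division by the median of all genes and 0.779 in the start window. That of the pSer2 promoters (1.02) became 1.06 after the division, 0.975 for the KO region overlapping the WT region and 1.09 in the start window. The count of members with RPB1 called lower (1) became 0 after the division and 0 at a ratio of 2. The count with pSer2 called higher (1) became 0 at a ratio of 2, 0 for overlapping regions and 0 in the start window. The counts with RPB1 or pSer2 covered share called higher (2 each) became 0 and 0 at 20 percentage points. Under a minimum −log10 q-value of 5, the RPB1 regions numbered 42 in WT and 49 in KO cells, and the overlapped share of WT pSer2 regions became 78.8%. With 50% reciprocal overlap, the overlapped shares were 39.2% for WT RPB1 and 47.2% for WT pSer2 regions. Shares of the whole lists under these settings are not given, so these values do not compare the members with the lists. Such overlaps depend on how a stretch was divided into regions. The start window was chosen after seeing the data. Another 45 values of these summary results kept their side of the threshold or stayed within the spread allowed. Of the medians above, the RPB1 one crossed 1 after the division and the pSer2 one crossed 1 for overlapping regions. The cause of the differences was not tested. Without replicates or read counts, no error of a fold enrichment can be given.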
